A study of Homo sapiens with 12 samples.

Results

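The parent line of CCRF-CEM cells and a line in which the gene SLFN11 was knocked out are compared here, in the libraries whose records are labelled prexasertib. The comparison takes 6 of the 12 RNA-seq libraries of the series, 3 of knockout cells and 3 of parent cells, and it covers every gene. CCRF-CEM is an established human T lymphoblast line from an acute leukemia. The parent records carry the genotype wild-type and the knockout records SLFN11 gene knockout. All 6 records are labelled with prexasertib, which inhibits the checkpoint kinase CHK1, at 100 nM for 6 h. The other 6 libraries, 3 of each line, are labelled with the solvent DMSO and are called labelled control. The series is about how SLFN11 acts on chromatin and on immediate early genes when replication is stressed, and comparing the lines asks which RNAs differ where SLFN11 is missing.

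The treatment labels of these libraries conflict with their files. In 6 of 6 records the attached file carries the library name of a control sample, and over the whole series 12 of 12 records have a file named for the other treatment of the same line. The comparison may therefore be the untreated baseline comparison of the 2 lines. Files were taken from the record they are attached to, and treatment is written as a label throughout. Line names do not conflict. All knockout libraries share a single line name, and the labels do not say whether that line is 1 clone, so the loss of SLFN11 and any other difference between the 2 lines cannot be told apart. Whether the 3 libraries of each group are separate cultures is not stated either, and the spread that p-values measure may be technical.

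SLFN11 is a member of the Schlafen family, a group of genes clustered on chromosome 17 that are induced by interferon in many cells. Its protein is recruited to stressed replication forks, where it blocks replication, and it also restricts the translation of some messages through tRNA cleavage. Leukemic T lymphoblasts resemble thymocytes held at an early stage. Cells of the cortical thymus rearrange antigen receptor genes with RAG1 and RAG2, add nucleotides with the polymerase DNTT, and display CD1 molecules. E proteins such as TCF3 and TCF12 drive many of these genes from E boxes, short sites read CANNTG, and ID proteins and the TAL1, LYL1 and LMO2 group oppose them.

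The promoters of CD1A, CD1D and PTCRA, thymocyte genes that were higher in knockout cells and were chosen with their values known, show where E boxes (CANNTG, in capitals) lie within 250 bases before and 50 bases after the annotated start. They are from RefSeq on GRCh38.p14 and are written 5′ to 3′ on the gene's strand, with CD1A at chr1:158248086-158248385 (plus strand), CD1D at chr1:158179697-158179996 (plus strand) and PTCRA at chr6:42915803-42916102 (plus strand).
CD1A: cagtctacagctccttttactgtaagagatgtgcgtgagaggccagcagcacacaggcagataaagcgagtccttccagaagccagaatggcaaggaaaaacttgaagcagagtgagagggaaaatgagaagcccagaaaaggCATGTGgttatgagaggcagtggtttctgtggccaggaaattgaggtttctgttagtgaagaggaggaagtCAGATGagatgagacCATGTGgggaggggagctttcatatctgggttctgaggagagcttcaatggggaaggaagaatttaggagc
CD1D: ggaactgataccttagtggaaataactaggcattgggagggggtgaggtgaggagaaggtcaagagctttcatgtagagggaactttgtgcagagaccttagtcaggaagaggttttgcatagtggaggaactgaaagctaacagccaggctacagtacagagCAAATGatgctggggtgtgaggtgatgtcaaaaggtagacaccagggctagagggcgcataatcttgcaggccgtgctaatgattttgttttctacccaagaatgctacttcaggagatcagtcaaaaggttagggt
PTCRA: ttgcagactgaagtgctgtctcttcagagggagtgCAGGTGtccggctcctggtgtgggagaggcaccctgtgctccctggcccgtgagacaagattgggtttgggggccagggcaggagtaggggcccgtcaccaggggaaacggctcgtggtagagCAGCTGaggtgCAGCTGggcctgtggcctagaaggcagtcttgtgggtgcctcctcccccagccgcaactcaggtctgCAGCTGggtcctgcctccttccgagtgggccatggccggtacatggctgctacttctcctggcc
CANNTG reads the same on both strands. It was found in 13 of the 17 tested thymocyte genes that had a promoter in the table, and in 68.7% of all 35116 promoters of that length, so the match is common.

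The parent and knockout cells both had the RNA of T lymphoblasts. CD3D had 334 to 386 CPM in parent libraries and 362 to 379 CPM in knockout libraries, where CPM is the exonic read count relative to the scaled library size. CD3E, CD3G, CD247, CD2, CD4, CD5 and CD7 were read in each library. Of the markers of other cells, the B-cell gene MS4A1 and the epithelial gene CDH1 were at 0 in all 6 libraries. Summed CPM over 24 B-cell and myeloid markers ran from 126 to 143 in parent and from 167 to 172 in knockout libraries. Summed CPM over 23 epithelial, fibroblast and erythroid markers ran from 3.91 to 4.45 in parent and from 12.3 to 13.18 in knockout libraries, and most of the sum in knockout libraries came from 1 gene, EPCAM. EPCAM, an epithelial adhesion gene, had 1.18, 1.14 and 1.63 CPM in parent and 9.99, 9.79 and 10.8 CPM in knockout libraries, while KRT18 was at 0 in 5 of 6 libraries.

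The 6 libraries held 47887791 to 61729444 exonic reads. Parent replicate 1 stood apart from the other 5: introns held 30.3% of its gene reads, against 25.9 and 26.4% in the other parent libraries and 25.4 to 26.0% in knockout libraries. The share averaged 27.5 ± 2.39% in parent and 25.8 ± 0.29% in knockout libraries (SD, n = 3 each; p = 0.2 by a two-sided exact permutation test). Without parent replicate 1 the counts of genes called changed little, to 3337 higher and 3124 lower of 23625 tested, while those of some gene lists changed more and are given beside the list. Without that library the intronic share difference, knockout minus parent, was -0.40 points, against -1.77 with it. What set that library apart was not tested.

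SLFN11 RNA was lower in the knockout libraries but was still read in each of them. In hg19 it spans 33677324 to 33700720 of chromosome 17. Exonic reads came to 117, 119 and 117 CPM in parent libraries and to 85.0, 90.7 and 89.4 CPM in knockout libraries, with no overlap between the lines. The log2 fold change of knockout over parent was -0.41 (SE 0.05, edgeR adjusted p = 5.55e-07). Its intronic reads went the other way, with 28.6, 27.1 and 26.3 CPM in parent and 39.0, 37.6 and 38.5 CPM in knockout libraries. These CPM are relative to the scaled exonic library size. In separate fits scaled on intronic reads, the log2 fold change was 0.61 for all intronic reads. It was also 0.61 for those outside other genes (edgeR adjusted p = 5.46e-07). Introns thus held 30.3 ± 1.09% of SLFN11 reads in knockout and 18.9 ± 0.73% in parent libraries (SD, n = 3 each), and a two-sided exact permutation test gave p = 0.1, which is the lowest possible with 3 against 3. The labelled control libraries, which are separate libraries of the same lines, gave -0.51 for the exonic reads. Under the prexasertib label the difference was smaller over all reads of the gene, at -0.16, and on the TPM scale, at -0.25. Since gene knockouts may leave transcription in place, RNA level alone checks the line names only weakly.

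**Figure D1:**
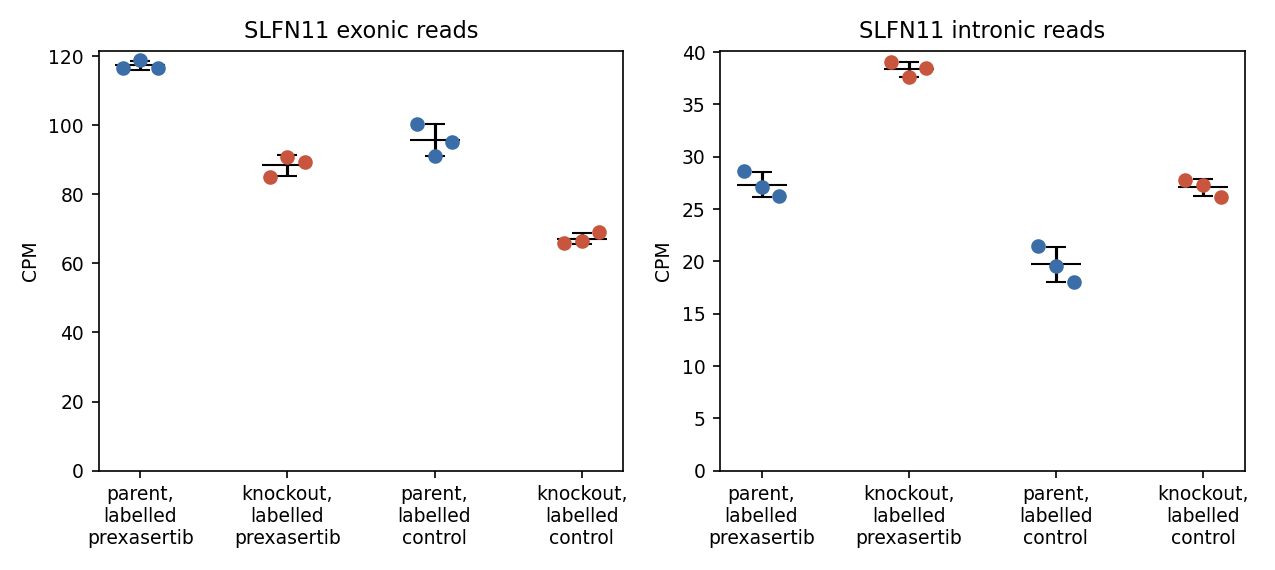
SLFN11 exonic reads (left) and intronic reads (right) in CPM on axes that start at 0, one point per library, with the mean and SD (n = 3) of each group. Both are relative to the scaled exonic library size. Knockout libraries lie below parent libraries for exonic reads (85.0 to 90.7 against 117 to 119 CPM under the prexasertib label) and above them for intronic reads (37.6 to 39.0 against 26.3 to 28.6 CPM).

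The rest of the Schlafen cluster differed as well. SLFN5, which encodes a nuclear Schlafen protein, was the only member with more RNA in knockout cells, with 85.1, 82.3 and 77.7 CPM in parent and 140.4, 133 and 147 CPM in knockout libraries, a log2 fold change of 0.78 (SE 0.05). SLFN12 had 6.32, 6.49 and 6.997 CPM in parent and 3.24, 2.85 and 3.37 CPM in knockout libraries, at -1.06 (SE 0.11). SLFN13, a tRNA-cleaving member, had 14.7, 15.3 and 13.9 CPM against 8.87, 9.04 and 9.68 CPM, at -0.67 (SE 0.08). SLFN12L was read at 0.297 to 0.325 CPM in parent and 0.0737 to 0.105 CPM in knockout libraries, and its call was lost without knockout replicate 3. So 1 of the 5 tested Schlafen genes was higher and 4 were lower, where 14.5% of all genes tested were higher and 13.5% lower, and the same members were called the same way in the labelled control libraries. SLFN14 had too few reads to be tested.

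Of 22 named genes tested within 500 kb of SLFN11, 17 are not Schlafen genes, and 14 of these did not pass. The 3 that passed stand beside 28.1% called over all genes, so this count says little about the neighbourhood. ZNF830, a zinc finger gene, was higher at 0.34 (SE 0.08), and NLE1, a ribosome assembly gene, was higher at 0.15 (SE 0.05). RASL10B, a Ras-like gene, was lower at -0.25 (SE 0.09). The calls of NLE1 and RASL10B were lost when single libraries were left out.

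Across the genome 23045 genes had enough reads to be tested. In knockout cells 3349 were higher (14.5% of those tested) and 3118 were lower (13.5%) by edgeR's quasi-likelihood test (adjusted p no higher than 0.05, Benjamini-Hochberg), or 28.1% in either direction. Differences of at least 2-fold were called upward for 553 genes (2.4%) and downward for 642 (2.79%). On the scale of the authors' deposited TPM values, tested with limma, 6358 were higher and 1327 lower, or 27.6% and 5.76% of genes, so 82.7% of calls were higher there against 51.8% from counts, and the median log2 fold change of all genes was 0.08 against -0.02. The libraries of the lines did not overlap for 38.1% of genes.

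The labelled control libraries allow the same comparison in 6 libraries that share none with these 6. There 4515 genes were higher (19.6%) and 4697 lower (20.4%). Of the 6467 genes called here, 3955 (61.2%) were called in the same direction there, 385 (5.95%) in the opposite direction and 2127 in neither. Among genes at least 2-fold higher here, 415 of 553 were called higher there and 16 lower, and among those at least 2-fold lower, 445 of 642 were called lower and 4 higher. Over all genes the log2 fold changes of both comparisons correlated with Pearson r = 0.62 and a Spearman coefficient of 0.46, a description over 23045 genes, which are not independent replicates. The difference between both line differences was itself called for 3883 genes (16.8%).

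**Figure D2:**
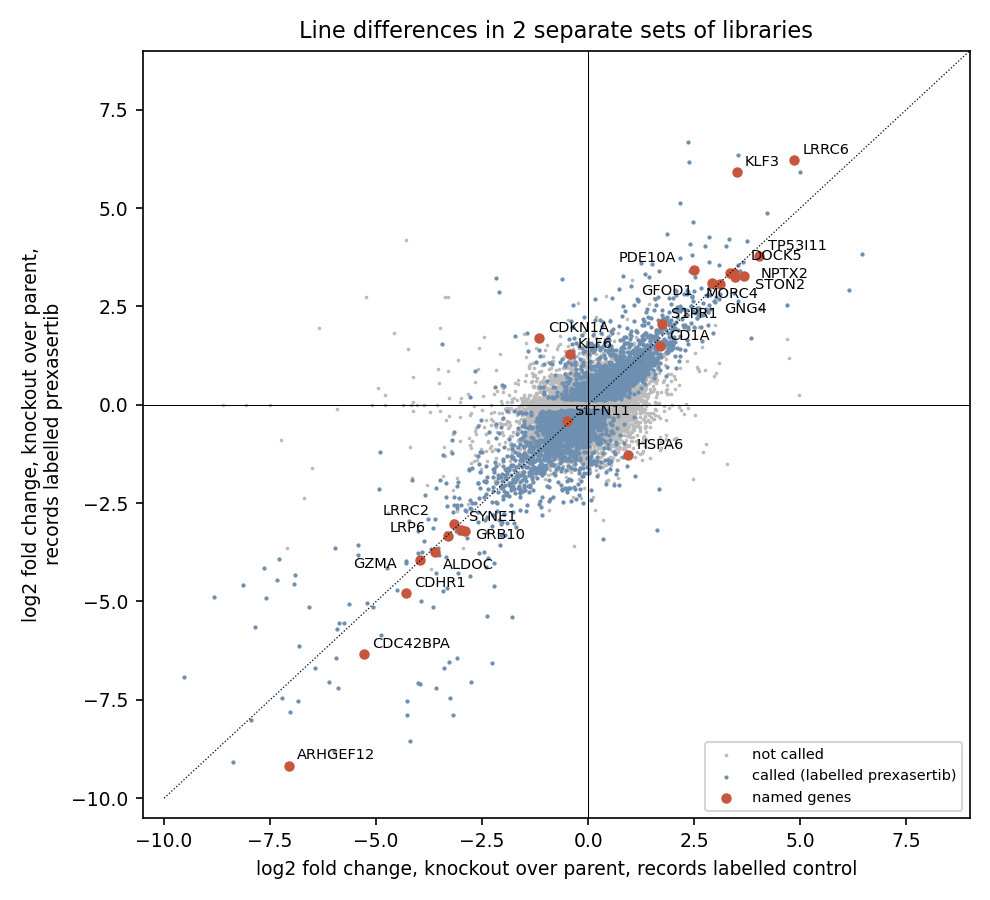
Log2 fold changes of knockout over parent for the 23045 genes tested, in the libraries labelled control (x axis) and labelled prexasertib (y axis), which share no library. DOCK5 and GNG4 lie near the dotted line of equal change, while CDKN1A, KLF6 and HSPA6 lie in the quadrants of opposite direction.

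Some genes were nearly silent in knockout cells and clearly read in parent cells. ARHGEF12, a guanine nucleotide exchange factor gene on chromosome 11 at 120207787 to 120360645, had 8.05, 8.07 and 7.93 CPM in parent libraries and 0, 0.0348 and 0 CPM in knockout libraries. That is 1341 reads against 2, a library-scaled ratio of 678 with a 95% interval of 187 to 5601 that covers counting error only. PNMAL1 had 319 reads against 2 and a ratio of 161 (44.3 to 1337), and BLK, a kinase of the Src family, had 285 against 2 and a ratio of 144 (39.5 to 1195). LRRC18 had 189 reads in parent and 0 in knockout libraries, at least 63.7-fold lower at a floor of 3 reads over the group (95% lower limit of the ratio 51.3, counting error only), but its reads lie in regions shared with another gene. Pseudogenes, small RNAs, antisense transcripts and clone-based, LINC or LOC symbols were left out of this search. Among the genes that remained, none showed the reverse, at most 3 reads in each parent library and at least 1 CPM in knockout cells.

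Other genes lost most of their RNA. CDC42BPA, a kinase that acts below CDC42, had 11.7, 10.3 and 10.1 CPM in parent and 0.175, 0.104 and 0.111 CPM in knockout libraries, a log2 fold change of -6.34 (SE 0.22, edgeR adjusted p = 1.36e-17). CDHR1, a cadherin-related gene, differed by -4.78 (SE 0.14). GZMA, the gene of the cytotoxic granule protease granzyme A, had 15.8, 19.4 and 18.6 CPM against 1.19, 1.15 and 1.18 CPM, at -3.93 (SE 0.12). LRP6, a co-receptor of Wnt signals, had 22.8, 20.4 and 20.3 CPM against 2.45, 1.83 and 2.01 CPM, at -3.34 (SE 0.11). GRB10, an adaptor of growth factor receptors, differed by -3.21 (SE 0.11), SYNE1, a nuclear envelope linker gene, by -3.18 (SE 0.12), and LRRC2 by -3.02 (SE 0.18). ALDOC, the aldolase C gene, had 19.8, 24.98 and 26.1 CPM against 1.96, 1.67 and 1.66 CPM, at -3.74 (SE 0.13), and shares its reads with an overlapping gene. In the labelled control libraries each of these 8 genes was lower too, at -2.91 for GRB10 to -5.28 for CDC42BPA.

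The genes with the largest gains were read at low levels in parent cells. LRRC6, a dynein assembly gene, had 0.171, 0.130 and 0.106 CPM in parent and 10.8, 9.79 and 10.5 CPM in knockout libraries, a log2 fold change of 6.22 (SE 0.21). KLF3, a transcriptional repressor gene, had 0.103, 0.0325 and 0.0848 CPM against 4.69, 4.19 and 4.53 CPM, at 5.92 (SE 0.27). Its parent libraries held at most 6 reads each, so its SE is approximate. DOCK5, a Rac exchange factor gene, had 4.42, 3.54 and 3.52 CPM against 40.2, 38.9 and 39.0 CPM, at 3.36 (SE 0.08, edgeR adjusted p = 3.31e-20). GNG4, a G protein gamma subunit gene, had 5.001, 5.16 and 4.47 CPM against 41.7, 41.5 and 41.1 CPM, at 3.08 (SE 0.07). TP53I11 differed by 3.78 (SE 0.18), the cyclic nucleotide phosphodiesterase gene PDE10A by 3.42 (SE 0.16), the endocytic adaptor gene STON2 by 3.36 (SE 0.10), the pentraxin gene NPTX2 by 3.27 (SE 0.12), MORC4 by 3.25 (SE 0.16) and GFOD1 by 3.11 (SE 0.10). All 10 were also higher in labelled control libraries, at 2.499 for PDE10A to 4.86 for LRRC6. Intronic reads of the 10 moved the same way, at 2.33 to 4.17.

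Cortical thymocyte genes were higher in knockout cells nearly throughout. Of the 20 tested, 16 were higher and 1 was lower, with a median log2 fold change of 0.62 against -0.02 over all genes, and the same 16 were higher in labelled control libraries. Without parent replicate 1 the counts were 15 and 2, and on the TPM scale they were 16 and 1. Intronic reads outside other genes gave 11 higher and 1 lower of 19, where 8.93% of all genes were higher and 9.34% lower. On exonic reads 14.5% of all genes were higher and 13.5% lower. These shares were 27.6% and 5.76% on the TPM scale, and 19.6% and 20.4% in labelled control libraries. Each list count below is to be read beside them.

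All 5 CD1 genes, which encode lipid-presenting molecules, were higher, at 0.66 to 1.58. CD1D, on chromosome 1 at 158149737 to 158154686, had 22.5, 24.5 and 25.8 CPM in parent and 70.4, 71.7 and 75.6 CPM in knockout libraries, a log2 fold change of 1.58 (SE 0.06, edgeR adjusted p = 1.28e-16). CD1A had 32.3, 41.1 and 42.5 CPM against 109, 107 and 109 CPM, at 1.49 (SE 0.07). CD1B and CD1C differed by 0.99 and 0.94, and CD1E by 0.66 (SE 0.06 each). PTCRA, the pre-T-cell receptor alpha gene, had 1.51, 1.56 and 1.61 CPM against 4.60, 4.75 and 4.11 CPM, at 1.53 (SE 0.14). The promoters of CD1A, CD1D and PTCRA printed above hold 3, 1 and 4 E boxes.

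The recombination genes moved with them. DNTT, the template-free polymerase gene, had 28.4, 27.8 and 31.0 CPM in parent and 76.5, 74.2 and 79.4 CPM in knockout libraries, at 1.40 (SE 0.06). RAG1 had 144, 159.7 and 154 CPM against 272, 271 and 284 CPM, at 0.85 (SE 0.05). RAG2 differed by 0.58 (SE 0.06), or 0.35 on reads outside other genes, and MME, a surface peptidase gene of early lymphoid cells, by 1.02 (SE 0.06). The single lower member was CD34, a marker of earlier progenitors, with 4.90, 5.60 and 5.68 CPM against 3.15, 2.28 and 1.82 CPM, at -1.15 (SE 0.15). CD8A, AQP3 and ELOVL4 did not pass, at -0.01, -0.02 and -0.01.

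**Figure D3:**
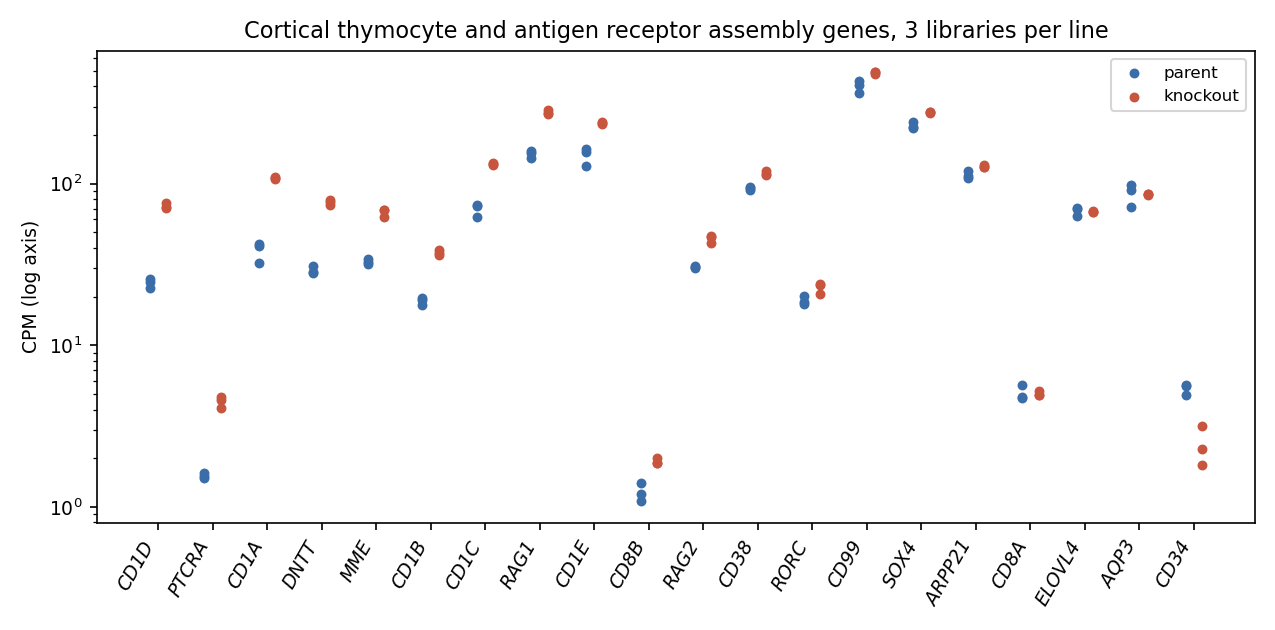
CPM on a log axis of the 20 tested cortical thymocyte and antigen receptor assembly genes, ordered by log2 fold change from CD1D to CD34, one point per library. Knockout libraries (red) lie above parent libraries (blue) without overlap for 16 genes and below them for CD34.

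Transcription factors of T cells and leukemia were more often lower, where 14.5% of all genes were higher and 13.5% lower. Of 39 tested, 4 were higher and 16 lower, with a median of -0.30 (-0.11, with 7 higher and 14 lower, without parent replicate 1, and -0.05, with 9 and 10, on the TPM scale). MEF2C, a leukemia-linked factor, had 3.53, 3.60 and 3.03 CPM in parent and 0.105, 0.104 and 0.0737 CPM in knockout libraries, at -5.13 (SE 0.26). RUNX3, a factor of mature T cells, had 8.68, 7.04 and 7.51 CPM against 1.35, 1.77 and 1.44 CPM, at -2.35 (SE 0.13). ID3, an inhibitor of E proteins, had 26.3, 25.3 and 27.8 CPM against 12.5, 13.98 and 13.1 CPM, at -1.002 (SE 0.07).

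Other genes of the E-protein circuit, named after their values were seen, differed less. ID1 differed by -0.83 (SE 0.15), LYL1 by -0.47 (SE 0.07), LMO2 by -0.34 (SE 0.08) and TAL1 by -0.16 (SE 0.06), and ID2 did not pass, at -0.44 (SE 0.22). Of the E proteins, TCF12 was higher at 0.21 (SE 0.05) and TCF3 lower at -0.16 (SE 0.06). TCF7, IKZF1 and TOX, factors of developing T cells, were the other 3 higher genes, at 0.37, 0.37 and 0.30.

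Notch signaling, which thymocytes need to enter the T lineage, was mixed, with 6 of 28 genes higher, 6 lower and a median of -0.04 (5 and 3 without knockout replicate 1, and 9 and 2, with a median of 0.05, on the TPM scale). The shares over all genes were 14.5% higher and 13.5% lower, and 27.6% and 5.76% on the TPM scale. HES4 and HES1 encode repressors switched on by Notch. HES4 had 7.31, 5.58 and 5.85 CPM in parent and 17.6, 19.3 and 18.3 CPM in knockout libraries, at 1.56 (SE 0.09). HES1 had 50.5, 56.1 and 55.8 CPM against 89.1, 90.5 and 84.0 CPM, at 0.70 (SE 0.05), while labelled control libraries gave -0.12 (edgeR adjusted p = 0.0963). MAML3, a co-activator of Notch, had 5.02, 3.73 and 4.13 CPM against 1.29, 1.36 and 1.254 CPM, at -1.72 (SE 0.16). The receptor gene NOTCH1 stood at 286 CPM in parent replicate 1, 168 and 184 CPM in the other parent libraries and 135 to 159 CPM in knockout libraries, and did not pass, at -0.49 (SE 0.19).

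The promoters of HES1, at chr3:194135898-194136197 (plus strand), and HES4, at chr1:1000048-1000347 (minus strand), are shown because both genes were higher, with TGGGAA, the core of the site of the Notch partner RBPJ, in capitals (RefSeq, GRCh38.p14, 5′ to 3′).
HES1: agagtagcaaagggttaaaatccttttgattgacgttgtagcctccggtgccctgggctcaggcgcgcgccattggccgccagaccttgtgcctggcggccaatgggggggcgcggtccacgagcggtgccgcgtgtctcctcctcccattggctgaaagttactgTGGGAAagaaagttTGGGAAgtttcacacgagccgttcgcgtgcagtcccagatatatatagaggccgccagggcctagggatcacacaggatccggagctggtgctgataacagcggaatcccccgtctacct
HES4: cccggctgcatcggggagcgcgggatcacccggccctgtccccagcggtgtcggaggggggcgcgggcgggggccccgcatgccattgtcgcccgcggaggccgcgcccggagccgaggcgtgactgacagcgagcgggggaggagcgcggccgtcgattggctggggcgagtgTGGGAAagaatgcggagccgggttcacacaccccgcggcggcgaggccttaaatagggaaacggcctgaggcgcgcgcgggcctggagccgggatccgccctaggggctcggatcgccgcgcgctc
Searched on both strands, TGGGAA was found in 4 of the 23 tested Notch genes with a promoter in the table and in 24.03% of all promoters of that length.

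Receptor and adhesion genes differed in both directions, where 14.5% of all genes were higher and 13.5% lower (27.6% and 5.76% on the TPM scale). Of 40 adhesion and chemokine receptor genes, 9 were higher and 12 lower, with a median of 0.05 (15 and 7 on the TPM scale, and 8 and 5 of 30 on intronic reads outside other genes). In labelled control libraries 16 were higher and 7 lower, with a median of 0.18, against 19.6% and 20.4% of all genes. S1PR1, the receptor by which lymphocytes leave the thymus and lymph nodes, had 27.4, 29.8 and 31.1 CPM in parent and 122, 122 and 123 CPM in knockout libraries, at 2.06 (SE 0.06, edgeR adjusted p = 1.23e-18). ITGA1, a collagen-binding integrin gene, had 3.92, 5.24 and 5.49 CPM against 17.7, 19.6 and 21.5 CPM, at 2.01 (SE 0.10). CCR4, a chemokine receptor gene, had 121, 136 and 138 CPM against 65.0, 62.8 and 65.2 CPM, at -1.03 (SE 0.05). The laminin receptor gene ITGA6 differed by -1.02 (SE 0.06) and the chemokine receptor gene CXCR4 by 0.47 (SE 0.05), both named after their values were seen.

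Of 37 genes of the T-cell receptor complex and its proximal signaling, 12 were higher and 7 lower, with a median of 0.03 (11 and 11 without parent replicate 1, and 18 and 3, with a median of 0.17, on the TPM scale). THEMIS, which sets signal strength in thymocyte selection, had 46.0, 51.5 and 48.9 CPM in parent and 101, 104 and 105 CPM in knockout libraries, at 1.08 (SE 0.05). SH2D1A, a signaling adaptor gene, was at 0.63 (SE 0.05), and its reads overlap another gene. Among 45 cytokine receptor, JAK, STAT and SOCS genes, 10 were higher and 14 lower (17 and 7 on the TPM scale). STAT5A, a factor of cytokine signaling, had 238, 245 and 254 CPM against 144, 153 and 145 CPM, at -0.74 (SE 0.05). IL6ST, the shared receptor chain gp130, differed by -1.80 (SE 0.15), and the receptor gene IL9R by 0.58 (SE 0.06). In the cytotoxic list GZMA, described above, and GZMM, another granzyme gene, at 0.45 (SE 0.08), passed among 11 tested. Over all genes 28.1% passed, 14.5% higher and 13.5% lower, while 27.6% were higher and 5.76% lower on the TPM scale.

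Heavy chain genes of MHC class I, which presents peptides to T cells, were among the lower genes in knockout cells. HLA-B had 100.4, 113 and 113 CPM in parent and 56.8, 58.9 and 56.6 CPM in knockout libraries, at -0.92 (SE 0.05). HLA-C, named after its values were seen, was at -0.62 (SE 0.06), and genes of this family share similar sequences, so reads may be split among them. The peptide-trimming gene ERAP1 was at 0.48 (SE 0.05). Over the whole antigen presentation list 5 of 25 genes were higher and 7 lower (8 and 4 on the TPM scale), and B2M, the light chain, did not pass, at -0.04 (SE 0.06). In labelled control libraries 9 of the 25 were higher and 4 lower. Among all genes 14.5% were higher and 13.5% lower (27.6% and 5.76% on the TPM scale, and 19.6% and 20.4% in labelled control libraries).

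Interferon-stimulated genes, a group that answers antiviral signals, were lower for 22 of 49 and higher for 5, with a median of -0.17 (22 and 8 without parent replicate 1). On the TPM scale 11 were lower and 10 higher, with a median of -0.02. In labelled control libraries 16 were lower and 12 higher, with a median of -0.06. All genes tested were lower for 13.5% and higher for 14.5%, or 5.76% and 27.6% on the TPM scale. In labelled control libraries these shares were 20.4% and 19.6%. IFI16, a DNA sensor gene, was among the higher ones, with 215, 203 and 207 CPM in parent and 335, 330.1 and 339 CPM in knockout libraries, at 0.68 (SE 0.05). ZC3HAV1, an antiviral RNA-binding gene, was at 0.63 (SE 0.05), and its intronic reads outside other genes at -0.12. MX1, an antiviral GTPase gene, was at 0.99 (SE 0.08). Lower members, named after their values were seen, included OAS2, an RNA sensor gene, with 8.60, 6.96 and 6.34 CPM against 2.69, 2.71 and 2.75 CPM, at -1.43 (SE 0.13), and SAMD9L, a growth-restraining gene, at -0.85 (SE 0.07).

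**Figure D4:**
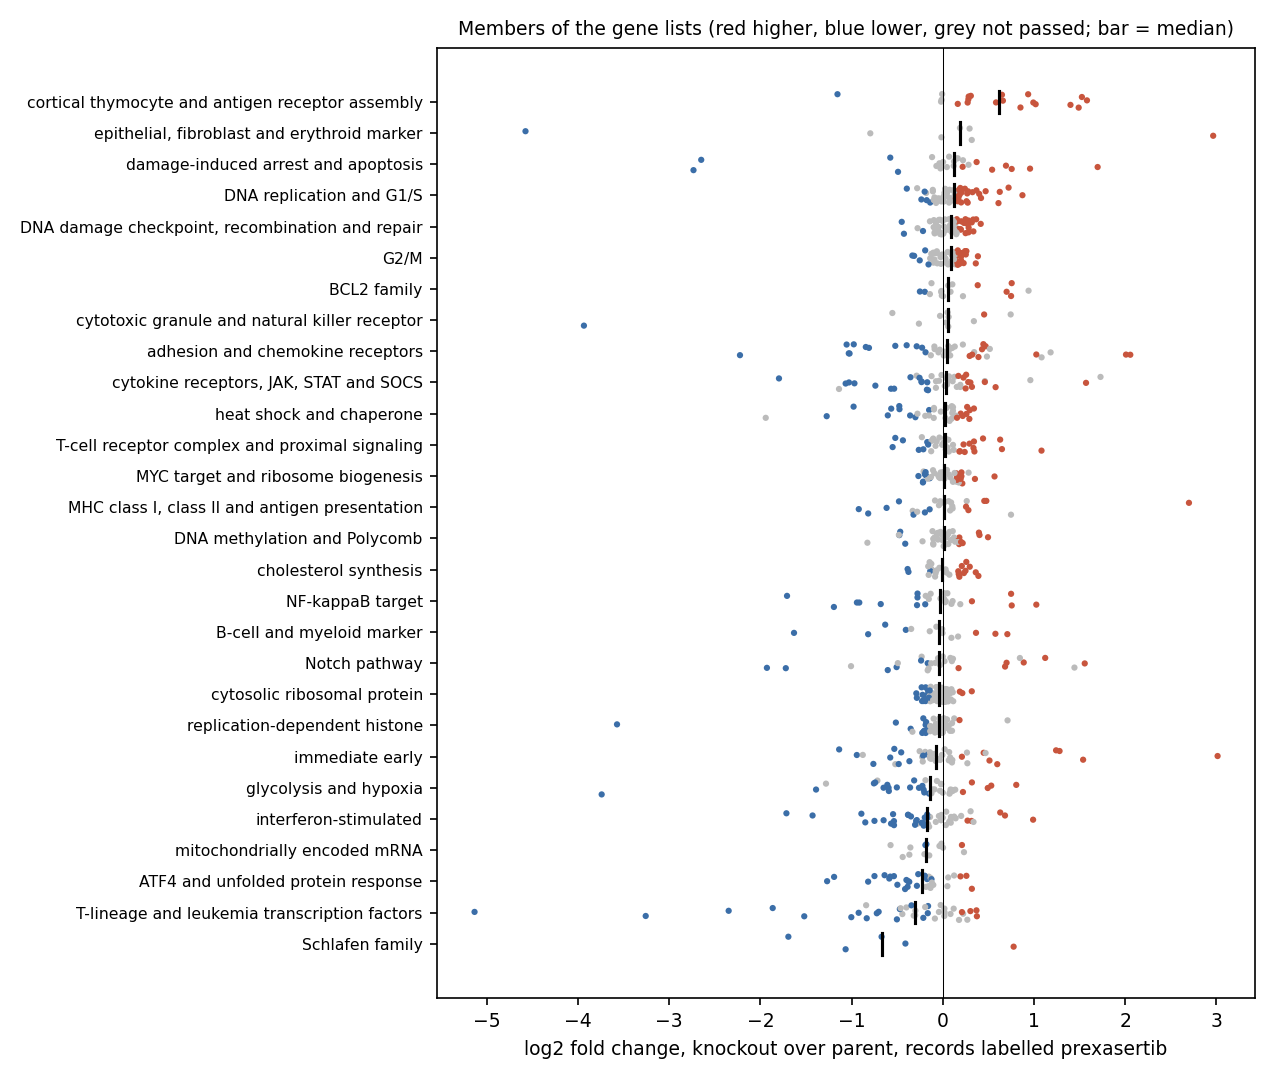
Log2 fold change of knockout over parent for each tested member of the 28 gene lists, one point per gene, red where higher, blue where lower and grey where the test was not passed, with a black bar at the list median. Cortical thymocyte genes have the highest median, 0.62, and Schlafen genes the lowest, -0.67.

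Immediate early genes, which answer stimuli without new protein synthesis, were divided here, where 14.5% of all genes were higher and 13.5% lower. Of 43 tested, 8 were higher and 10 lower, with a median of -0.08 (10 and 8 without parent replicate 1, 13 and 5, with a median of 0.05, on the TPM scale, and 4 and 4 of 29, with a median of 0.11, on intronic reads outside other genes). In labelled control libraries 3 were higher and 33 lower, with a median of -1.18, and the difference between both line differences was above 0 for 28 genes and below 0 for 2, against 9.53% and 7.32% of all genes. KLF6, a zinc finger factor gene, had 18.4, 16.1 and 16.3 CPM in parent and 40.3, 41.1 and 42.1 CPM in knockout libraries, at 1.28 (SE 0.06), and was at -0.44 in labelled control libraries. PPP1R15A, a stress-induced phosphatase regulator gene, had 32.6, 36.4 and 37.2 CPM against 16.1, 17.5 and 14.7 CPM, at -1.14 (SE 0.07). JUN, named after its values were seen, did not pass here, at -0.14 (SE 0.06, -0.16 and passing on reads outside other genes), with 57.0, 58.5 and 61.7 CPM against 51.8, 58.1 and 51.1 CPM, and was at -2.49 in labelled control libraries.

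NF-kappaB targets followed the same split between labels, with 4 of 25 higher and 9 lower here and 1 higher and 23 lower in labelled control libraries. NFKB1, a subunit gene, had 35.9, 39.6 and 37.0 CPM in parent and 19.8, 19.5 and 20.5 CPM in knockout libraries, at -0.91 (SE 0.06). CD83, an activation marker gene, was at -0.94 (SE 0.07). The medians were -0.02 here and -0.82 there (0.11 here on the TPM scale, with 9 higher and 3 lower). Over all genes 14.5% were higher and 13.5% lower here, 19.6% and 20.4% there, and 27.6% and 5.76% on the TPM scale.

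Most cell cycle genes did not pass as higher, but more passed as higher than as lower on exonic reads. Shares over all genes were 14.5% higher and 13.5% lower, 27.6% and 5.76% on the TPM scale, and 19.6% and 20.4% in labelled control libraries. Replication and G1/S genes numbered 64, and 29 of them were higher and 5 lower, with a median of 0.12 (29 and 9 without parent replicate 1, 20 and 3 without knockout replicate 3, and 42 and 1 on the TPM scale). In labelled control libraries 28 of the 64 were higher and 17 lower, with a median of 0.10. RB1, the retinoblastoma brake on S phase, had 163, 155 and 151 CPM in parent and 246, 256 and 270.0 CPM in knockout libraries, at 0.72 (SE 0.05). CCND3, the cyclin D3 gene, had 405, 457 and 471 CPM against 682, 701 and 653 CPM, at 0.61 (SE 0.06). Of 48 G2/M genes 16 were higher and 5 lower, with a median of 0.09, against 3 higher and 35 lower in labelled control libraries. CCNA2, the cyclin A2 gene, was at 0.36 (SE 0.05), and PLK1, the mitotic polo-like kinase gene, at -0.33 (SE 0.05). Without parent replicate 1 the G2/M counts were 13 and 10, and on the TPM scale 30 and 1. Intronic reads outside other genes gave the opposite order for G2/M genes, 2 higher and 9 lower of 47, with a median of -0.07.

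Checkpoint, recombination and repair genes included 20 of 60 that were higher and 3 that were lower, with a median of 0.09 (23 and 5 without parent replicate 1, 39 and 2 on the TPM scale, and 5 and 3 of 58, with a median of -0.02, on intronic reads outside other genes). The lower ones included H2AFX, the histone variant phosphorylated at breaks, at -0.45 (SE 0.06), and the recombination gene XRCC3, at -0.22. In labelled control libraries 16 of the 60 were higher and 17 lower, with a median of 0.01, against 19.6% and 20.4% of all genes. CHEK1, the gene of the kinase that prexasertib inhibits, was at 0.20 (SE 0.05) and was named after its values were seen. Of 25 target genes of damage-induced arrest and apoptosis, 7 were higher and 4 lower (12 and 4 without replicate 1 of the labelled control parent libraries, and 13 and 3 on the TPM scale). Both lists stand beside 14.5% higher and 13.5% lower over all genes, or 27.6% and 5.76% on the TPM scale. CDKN1A, the CDK inhibitor gene, had 1.95, 2.05 and 2.06 CPM in parent and 6.70, 6.59 and 6.36 CPM in knockout libraries, at 1.70 (SE 0.10), but was at -1.15 in labelled control libraries. PMAIP1, a proapoptotic gene, had 37.3, 46.0 and 48.0 CPM against 71.2, 74.6 and 75.9 CPM, at 0.76 (SE 0.07), and was at -0.23 there.

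Replication-dependent histone genes, whose near-identical copies make single members uncertain, were lower for 13 of 57 and higher for 1 here, and lower for 57 of 57 in labelled control libraries. Their medians were -0.04 and -0.90 (0.11, with 21 higher and 3 lower, here on the TPM scale). The 13 lower genes here rested on single libraries, with 6 lower without parent replicate 2, 4 without parent replicate 3, 7 without knockout replicate 1 and 5 without knockout replicate 3. All reads of a gene gave 1 higher and 3 lower, and a GC offset, chosen after seeing the data, gave 9 higher and 8 lower. HIST1H1A, a linker histone gene, had 1.51, 1.46 and 1.31 CPM in parent and 0.140, 0.0869 and 0.129 CPM in knockout libraries, at -3.57 (SE 0.30). HIST1H2BM was at -0.35 (SE 0.06). Over all genes 13.5% were lower here and 20.4% in labelled control libraries, and 27.6% were higher here on the TPM scale.

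Among 35 heat shock and chaperone genes, 8 were higher and 9 lower here (18 and 6 on the TPM scale), and in labelled control libraries 23 were higher and 3 lower. HSPA6, an inducible HSP70 gene with a near-identical copy, had 70.6, 77.7 and 79.6 CPM in parent and 32.3, 32.4 and 29.5 CPM in knockout libraries, at -1.27 (SE 0.06), and was at 0.94 there. SERPINH1, a collagen chaperone gene, was at -0.98 (SE 0.10) here and at 0.85 there. For all genes the shares were 14.5% higher and 13.5% lower here, 19.6% and 20.4% there, and 27.6% and 5.76% on the TPM scale.

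ATF4 and unfolded protein response genes, which adjust amino acid supply and folding, were lower for 19 of 32 and higher for 3, with a median of -0.23, and 16 were lower under both labels. On the TPM scale 14 were lower and 5 higher, with a median of -0.07. Intronic reads outside other genes gave only 4 lower and 3 higher of 30, with a median of -0.12. With a library left out 16 to 22 were lower and 2 to 4 higher. Among all genes 13.5% were lower and 14.5% higher, or 5.76% and 27.6% on the TPM scale. On intronic reads outside other genes these shares were 9.34% and 8.93%. ATF5 had 27.0, 29.3 and 33.6 CPM in parent and 11.5, 14.03 and 11.8 CPM in knockout libraries, at -1.27 (SE 0.08), with reads that overlap another gene. SLC7A11, the cystine transporter gene, had 26.6, 26.5 and 24.5 CPM against 14.5, 15.196 and 14.4 CPM, at -0.82 (SE 0.08). ASNS, the asparagine synthetase gene, named after its values were seen, had 14.1, 16.1 and 15.1 CPM against 8.73, 8.52 and 9.70 CPM, at -0.75 (SE 0.08).

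The ASNS promoter, at chr7:97872359-97872658 (minus strand, RefSeq, GRCh38.p14, 5′ to 3′), is shown with its match to TGATGNAA, the kind of site that ATF4 with a C/EBP partner binds, in capitals.
ASNS: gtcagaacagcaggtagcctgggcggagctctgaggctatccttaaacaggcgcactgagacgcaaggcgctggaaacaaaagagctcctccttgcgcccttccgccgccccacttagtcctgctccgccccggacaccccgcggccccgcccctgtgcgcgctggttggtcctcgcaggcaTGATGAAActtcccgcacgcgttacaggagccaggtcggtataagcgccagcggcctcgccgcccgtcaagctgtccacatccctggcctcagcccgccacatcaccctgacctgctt
On either strand TGATGNAA was found in 4 of the 30 tested genes of this list with a promoter in the table. It was found in 3.62% of all promoters of that length. The list was chosen to hold ATF4 genes, so a higher share was built in. All 4 genes were among the 17 of those 30 that were lower, which are too few to compare lower with other genes.

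Metabolic and growth genes differed in both directions. The counts stand beside 14.5% higher and 13.5% lower over all genes. These shares were 27.6% and 5.76% on the TPM scale, and 8.93% and 9.34% on intronic reads outside other genes. In labelled control libraries they were 19.6% and 20.4%. Of 38 glycolysis and hypoxia genes, 5 were higher and 16 lower, with a median of -0.14 (11 and 10, with 0.01, on the TPM scale, and 9 and 3 of 36, with 0.07, on intronic reads outside other genes), ALDOC being the most changed. In labelled control libraries 10 of these 38 were higher and 10 lower, with a median of 0.05. P4HA1, a collagen prolyl hydroxylase gene, was at -0.74 (SE 0.06) and its intronic reads outside other genes at 0.03. GPI, an enzyme gene of glycolysis named after its values were seen, had 755, 742 and 769 CPM in parent and 503, 514 and 486 CPM in knockout libraries, at -0.59 (SE 0.05). Of 26 cholesterol synthesis genes 10 were higher and 3 lower (8 and 8 without parent replicate 1), with HMGCS1 at 0.39 (SE 0.05) and ACAT2 at 0.36 (SE 0.05). Of 37 genes of MYC and ribosome assembly, 9 were higher and 7 lower (20 and 0 on the TPM scale, 12 and 4 without parent replicate 3, or without 1 of 3 labelled control libraries, parent replicate 1, parent replicate 2 or knockout replicate 1, and 6 and 4 without knockout replicate 1), with the polyamine enzyme gene ODC1 at 0.57 (SE 0.05) and the nucleolar gene GNL3 at 0.35 (SE 0.06). Of 40 DNA methylation and Polycomb genes 8 were higher and 3 lower (9 and 5 without parent replicate 2, 18 and 1 on the TPM scale, and 2 and 4 on intronic reads outside other genes), with the methyltransferase gene EZH2 at 0.50 (SE 0.05) and the deacetylase gene HDAC2 at 0.40 (SE 0.05). In labelled control libraries 11 of these 40 were higher and 14 lower. Of 17 BCL2 family genes 4 were higher and 2 lower (8 and 0 on the TPM scale, and 1 and 3 on intronic reads outside other genes), with BCL2L2, an antiapoptotic gene with overlapping reads, at 0.70 (SE 0.11), or 0.20 over all reads of the gene, which did not pass. Of 63 cytosolic ribosomal protein genes 3 were higher and 16 lower, which became 2 and 31 without parent replicate 1, 3 and 8 without parent replicate 2, 3 and 9 without parent replicate 3, 2 and 10 without knockout replicate 1 and 29 and 2 on the TPM scale.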

How the data were processed

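Total RNA of CCRF-CEM cells was sequenced as paired ends in 12 libraries, of which the 6 labelled prexasertib are compared. The submitters' processing notes name STAR 2.5.4a, Picard 2.9.2, Trimmomatic 0.39 and Trim Galore 0.6.2, and the build hg19; their roles, the read counter, its strand setting and the annotation are not given in the sources used here. The deposited tables hold, per gene and library, the authors' read counts over exons and introns and the authors' TPM values; large counts are written to 6 digits, and a gene not listed in a file was taken as 0. In the union of 44183 features, 36 copies on the Y pseudoautosomal region were left out, leaving 44147. File coordinates were shifted by 1 to be 1-based.

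For the tests, edgeR 4.0.16 under R 4.3.3 was run on exonic counts (TMM, filterByExpr with a minimum count of 10, robust quasi-likelihood F test), with 4 group means fitted over the 12 libraries so that all share an estimate of the spread. P-values were Benjamini-Hochberg adjusted over the 23045 genes tested, with a threshold of 0.05. SE is the size of the log2 fold change divided by the square root of the F statistic. It is approximate and can understate the error of genes with few reads in 1 line. Alternatives used DESeq2 1.42.0, limma 3.58.1 on log2(TPM + 1), other read classes, filters and scalings, a replicate term, and each library left out. An added GC offset and intronic reads outside other genes were chosen after seeing the data. The edgeR script was tested on simulated data. No columns of other samples were used.

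Named genes were the 10 largest changes each way among called genes whose mean log2 CPM reached 1 and whose lines did not overlap, up to 5 genes with at most 3 reads per library in 1 line and at least 1 CPM in the other, all Schlafen genes, the 3 or 2 smallest p-values of each of the 28 lists, and genes within 500 kb of SLFN11. Pseudogenes, small RNAs, antisense transcripts and clone-based, LINC or LOC symbols were left out of the largest changes, the nearly silent genes and the neighbours of SLFN11. The members and lists were chosen with earlier results of these data known. Some genes that the rule names are not reported here. Intervals and floors cover counting error only.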

Additional observations from a re-analysis of the deposited data

Results flagged for a closer look

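Many of the 96 named genes were chosen by large changes or small p-values in the libraries labelled prexasertib. Those values enter the interaction test, so a share above that of all genes was favoured in advance and is no result. For 31 of the 96 named genes the knockout against parent difference in libraries labelled prexasertib differed from that in libraries labelled control (edgeR interaction test, adjusted p of at most 0.05, against 16.8% of all genes tested). Values are given for 30 of them as the log2 difference, labelled prexasertib minus labelled control.

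The direction was opposite under the labels for 7 of these genes. CDKN1A differed by 2.85, KLF6 by 1.72, PMAIP1 by 0.99, HES1 by 0.82 and EZH2 by 0.70, all higher in knockout cells here and lower there, although HES1 did not pass there. HSPA6 differed by -2.21 and SERPINH1 by -1.82, both lower here and higher there.

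Genes that were lower in knockout cells under both labels, and less so here, were HIST1H1A at 1.86, HIST1H2BM at 0.83, SLC7A11 at 0.72, ID3 at 0.61, NFKB1 at 0.58, CD83 at 0.31 and HLA-B at 0.26. Those lower under both and more so here were PNMAL1 at -3.13, with 2 reads in the knockout libraries here, and PPP1R15A at -0.31.

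Among genes higher in knockout cells here, the difference was larger here for KLF3 at 2.42, LRRC6 at 1.35, PDE10A at 0.92, HES4 at 0.72, ODC1 at 0.40, S1PR1 at 0.31, IFI16 at 0.25 and GNL3 at 0.24. It was smaller here for GZMM at -0.41, SH2D1A at -0.37, HDAC2 at -0.34, CCND3 at -0.31 and ERAP1 at -0.31. AP2B1, an adaptor gene near SLFN11 that did not pass here, differed by -0.40.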

How the results depend on the processing

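Of 2452 recomputed values of the 96 named genes, 2381 were counted as unchanged, 39 lost the call, 10 gained one and 22 reversed. The 22 reversals were all of genes called in the main fit. A gene not called there could change sign and still count as unchanged. AP2B1, for example, ran from -0.04 to 0.18 with a library left out, and no reversal was counted for it. The causes were not tested. The main counts were 3349 genes higher and 3118 lower, 3955 of them called the same way in labelled control libraries, and 3883 with a called difference between labels. TPM with limma gave 6358 higher and 1327 lower. With files assigned by library name, 4515 were higher and 4697 lower. That setting only swaps the labels and so repeats the labelled control comparison given above, and 7 of the 22 reversals come from it. Intronic reads gave 1910 and 1818, with 1970 called alike and 1953 differing between labels, and intronic reads outside other genes gave 1399 and 1463, with 1499 and 1553; fewer genes could be tested there. At an adjusted p of at most 0.01, 1961 were lower and 2315 differed between labels. Leaving out 1 library gave 2667 to 3801 higher, 2394 to 3124 lower, 3399 to 4245 called alike and 3001 to 5042 differing, and SLFN11 at -0.43 to -0.38. The intronic share difference was -1.77 points, and -2.57 to -0.40 with a library left out. SLFN11 reversed to 0.61 on both classes of intronic reads. By library name, which gives the labelled control values again, HES1 reversed to -0.12, KLF6 to -0.44, CDKN1A to -1.15, PMAIP1 to -0.23, EZH2 to -0.21, HSPA6 to 0.94 and SERPINH1 to 0.85. On intronic reads, and on those outside other genes, the values were -0.12 and -0.12 for ZC3HAV1, -0.040 and -0.038 for HMGCS1, -0.0028 and -0.0018 for EZH2, -0.0050 and -0.017 for HDAC2, 0.038 and 0.027 for P4HA1 and 0.045 and 0.046 for RASL10B, while BCL2L2 was at -0.077 on all intronic reads only. With the replicate number as a block 3370 were higher and 3135 lower, and no call of a named gene changed. Deviations of same-numbered parent and knockout libraries correlated at 0.194, -0.072 and -0.087 over 10625 genes, so the numbers were not treated as pairs. Parent replicate 2 with knockout replicate 3 gave 0.216, and parent replicate 3 with knockout replicate 2 gave 0.226. The remaining pairs of different numbers were negative. A pairing across different numbers was not modelled or tested. NLE1 lost its call without parent replicate 2, knockout replicate 1 or knockout replicate 2, SLFN12L without knockout replicate 3 (-1.55), and AP2B1 gained one without parent replicate 1 (0.18).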

Other observations

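The line difference varied with base composition. Among 15814 genes with a mean of at least 1 CPM, 83.2% had a GC content from an annotated transcript. In the fifth with the lowest GC content, 26.5 to 40.9%, 29.8% were higher in knockout cells and 9.28% lower, with a median log2 fold change of 0.07. In the fifth with the highest, 58.1 to 83.9%, 12.9% were higher and 28.6% lower, with a median of -0.10. The medians ran the other way in labelled control libraries, from -0.04 to 0.05. With a GC offset, chosen after seeing the data, 3147 genes were higher and 2871 lower. The part of base composition in the gene differences was not tested further.

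Some chromosomes and regions stood to 1 side. Chromosome 19 had 129 of 1682 tested genes higher and 341 lower, where 14.5% of all genes were higher and 13.5% lower. Its median was -0.11, and it was -0.10 in labelled control libraries and -0.07 with the GC offset. Of 283 windows of 10 Mb with at least 20 tested genes, the window on chromosome 12 from 20000001 to 30000000 had the highest median, 0.25, with 22 of 52 genes higher and 2 lower. Its median was 0.16 in labelled control libraries and 0.17 with the GC offset. The window on chromosome 17 from 10000001 to 20000000 had 4 of 143 genes higher and 32 lower, with a median of -0.22, -0.18 in labelled control libraries and -0.16 with the GC offset. Windows in the middle 90% ran from -0.14 to 0.10.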
